A study of Mus musculus with 12 samples.

Results

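Dividing microglia-like cells are the cells of the mouse meningeal preparations that carried both the RNA of microglia and the RNA of cells in S, G2 or M phase. A cell was counted as microglia-like when it had at least 5 unique molecular identifiers (UMIs, each standing for 1 captured RNA molecule) of Sparc, P2ry12, Tmem119 and Sall1 together, more of these than of the macrophage genes Mrc1, Cd163, F13a1, Cbr2 and Pf4 together, and at most 1 UMI of Gpnmb. It was counted as dividing when Mki67, Top2a, Cdk1, Cenpf, Birc5 and Ccnb2 together reached at least 5 UMIs, a total called the cycle sum here. Among 21689 cells kept, 2172 were microglia-like and 445 of these were dividing. Another 543 had a cycle sum of 1 to 4, and the 1184 with a cycle sum of 0 served as the comparison set.

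The cells came from C57Bl/6j pups at postnatal day 4. The hypoxia-ischemia (HI) group was taken 6 h after the insult, a model of injury around birth in which the brain loses both blood flow and oxygen for a time, and the naive group had no such insult. Each group had 2 libraries of whole meninges, each a pool of 12 pups with 6 males and 6 females, profiled by droplet sequencing from the 5′ end of each transcript with paired libraries of B-cell and T-cell receptor transcripts. No sham group is among them, so effects of the procedure itself cannot be told apart from those of HI. The 4 pools were handled in 2 runs, each holding 1 pool of either group. Which replicate number belongs to which run is not labelled. Nothing says how the pools of a group relate to each other, and p-values measure only the spread between these libraries.

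Microglia are the resident macrophages of the brain. They arise from early precursors of the yolk sac, depend on the receptor Csf1r for survival, and expand by division within the brain in the weeks around birth. A cell that commits to division first loads the replicative helicase and makes nucleotides and histones, then raises cyclin A and cyclin B with their kinase Cdk1, condenses and attaches its chromosomes, and leaves mitosis when the anaphase-promoting complex degrades the cyclins. Many of the late genes share promoter elements, the CHR element and the CCAAT box, through which the DREAM complex and the factors MYBL2, FOXM1 and NF-Y act.

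The libraries HI 1, HI 2, naive 1 and naive 2 gave 92, 124, 128 and 101 dividing cells. The UMIs summed over them were 1593899, 1786223, 2061770 and 1670688. Dividing cells were deeper than the comparison set, with median UMIs per cell of 14845.5, 13686.5, 14595.5 and 13997 against 10408, 9572, 9786 and 9553 in cells with a cycle sum of 0. No barcode was a dividing cell in more than 1 library, although any 2 libraries shared 29 to 55 barcodes in all. Among the dividing cells 0, 2, 6 and 7 had a high doublet score. RNA of other cell types was above a set limit (10 UMIs of a marker list, or 30 for macrophage and lymphocyte lists) in 12 and 7 of them in HI 1 and HI 2 and in 21 and 25 in naive 1 and naive 2.

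The label was checked against marker lists and against dividing macrophages of the same libraries. These macrophages were chosen by the mirror of the rule, with the macrophage genes at 5 UMIs or more and above the microglia genes, and at most 1 UMI of Gpnmb. The summed level of 8 microglia markers outside the rule was 12938 to 15165 counts per 1000000 UMIs (CPM) over the 4 libraries in dividing microglia-like cells and 2462 to 2919 CPM in dividing macrophages. The summed level of 13 markers of border-associated macrophages outside the rule was 599 and 577 CPM in dividing cells of the HI libraries and 787 and 985 CPM in those of the naive libraries. In dividing macrophages it was 6924 to 8219 CPM. Hemoglobin genes were at 0 in all 4 libraries, and Ms4a1, a B-cell surface protein, had no UMI. In HI 2, 1 cell held 542 of the 549 UMIs of the neutrophil gene S100a9 in that library's dividing cells.

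The values that chose the cells are given as a description only. The cycle sum had a median of 27 UMIs among the 445 dividing cells and ran to 197. Close to the threshold, 19 cells had a sum of 5 and 24 a sum of 6, while 41 cells just outside it had a sum of 4 and 50 a sum of 3. Of the cycle genes, Top2a, the topoisomerase that untangles chromosomes, averaged 561 ± 20.8 CPM and Mki67, which coats mitotic chromosomes, 433 ± 45.0 CPM in dividing cells (SD, n = 4 libraries). Birc5, of the chromosomal passenger complex, averaged 443 ± 27.9 CPM, Cdk1 368 ± 11.5 CPM, Ccnb2, a cyclin of Cdk1, 307 ± 23.1 CPM, and Cenpf, a kinetochore protein, 299 ± 49.0 CPM. All 6 are 0 by construction in the comparison set.

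Stretches of the promoters of these genes are shown because the cycle genes that chose the cells are classical targets of the CHR element and the CCAAT box. Each line gives 180 bases before to 20 bases after the annotated start from RefSeq (GRCm38.p6), 5′ to 3′ on the gene's strand. Capitals mark the CHR core, which reads TTTGAA, or TTCAAA on the opposite strand. They also mark the box CCAAT, which reads ATTGG on the opposite strand.
Mki67, chr7:135716360-135716559, minus strand: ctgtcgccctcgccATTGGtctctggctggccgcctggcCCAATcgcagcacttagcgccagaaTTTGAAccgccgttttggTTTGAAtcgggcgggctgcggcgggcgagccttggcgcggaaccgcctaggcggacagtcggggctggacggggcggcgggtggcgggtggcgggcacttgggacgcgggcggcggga
Top2a, chr11:99024170-99024369, minus strand: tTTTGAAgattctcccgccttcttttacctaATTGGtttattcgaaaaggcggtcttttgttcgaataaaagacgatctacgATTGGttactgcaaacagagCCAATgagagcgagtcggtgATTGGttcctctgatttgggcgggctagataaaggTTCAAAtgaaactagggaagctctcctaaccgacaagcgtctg
Cdk1, chr10:69352893-69353092, minus strand: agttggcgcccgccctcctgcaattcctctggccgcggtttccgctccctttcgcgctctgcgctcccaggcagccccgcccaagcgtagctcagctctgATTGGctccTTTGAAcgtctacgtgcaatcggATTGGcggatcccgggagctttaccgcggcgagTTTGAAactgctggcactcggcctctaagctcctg
Cenpf, chr1:189688067-189688266, minus strand: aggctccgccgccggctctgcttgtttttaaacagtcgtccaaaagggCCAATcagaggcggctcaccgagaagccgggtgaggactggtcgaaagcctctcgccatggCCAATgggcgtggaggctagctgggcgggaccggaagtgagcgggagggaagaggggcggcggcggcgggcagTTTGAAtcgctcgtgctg
Ccnb2, chr9:70421535-70421734, minus strand: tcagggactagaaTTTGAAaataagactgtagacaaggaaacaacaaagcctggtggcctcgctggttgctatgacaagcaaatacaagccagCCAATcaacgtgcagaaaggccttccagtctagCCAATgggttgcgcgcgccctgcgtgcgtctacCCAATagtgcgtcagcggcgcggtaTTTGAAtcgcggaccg
All 5 windows held both motifs, and the window of Birc5 held neither. Over the same window, 3.64% of 27025 mouse promoters held both motifs, with 12.2% holding TTTGAA and 29.8% CCAAT on either strand. Among 7896 promoters of genes compared between dividing cells and the comparison set, 2.63% held both, with TTTGAA in 7.004% and CCAAT in 33.5%. Among 318 promoters of genes at least 2-fold higher in dividing cells in all 4 libraries the share with both was 18.9%, and among 86 promoters of the 4 mitosis lists outside the rule it was 32.6%. For the replication and nucleotide lists, 6.98% of 43 promoters held both, with TTTGAA in 9.30% and CCAAT in 58.1%. A match of letters is a description of the window and does not show binding.

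Genes outside the rule that belong to division stood far higher in dividing cells than in cells with a cycle sum of 0. The rule split the cells on this contrast, so these values are a description without a test. Of 10219 genes, 444 (4.34%) were at least 2-fold higher in dividing cells in all 4 libraries and 53 (0.519%) at least 2-fold lower. The 10219 include the 6 cycle genes of the rule, which are 0 by construction in the comparison set, so part of the 444 was set by the rule. Cyclin A, Ccna2, averaged 337 ± 21.8 CPM in dividing cells and 0.395 ± 0.303 CPM in the comparison set (SD, n = 4 libraries), a mean log2 ratio of 8.17. The polo kinase Plk1, which drives entry into mitosis, averaged 174 ± 12.6 CPM in dividing cells and 0.166 ± 0.193 CPM in the comparison set. Ube2c, the ubiquitin-conjugating enzyme of the anaphase-promoting complex, averaged 667 ± 132 CPM and 3.10 ± 2.95 CPM in the same order.

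Spindle, centromere and cyclin genes had higher median ratios than the lists of replication, nucleotide supply, chromatin and mitotic exit genes. In the list of spindle and cytokinesis genes, all 32 listed were at least 2-fold higher in dividing cells in every library, with a median log2 ratio of 5.27. Racgap1, needed for the cleavage furrow, had a log2 ratio of 6.32, and Stmn1, which destabilises microtubules, 3.15. Of 31 centromere, kinetochore and condensin genes 29 passed the same limit, with a median of 4.32. The centromeric histone Cenpa had 400.3 ± 42.7 CPM in dividing cells against 8.86 ± 1.72 CPM in cells with a cycle sum of 0, and Smc4, a condensin subunit, 276 ± 23.5 against 10.7 ± 1.15 CPM. Of 32 cyclins and mitotic kinases 25 passed, with a median of 3.78. Of 11 genes of mitotic exit and the anaphase-promoting complex, to which Ube2c belongs, 7 passed, with a lower median of 1.33.

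Replication genes were closer together in the 2 states. Of 35 licensing and fork genes 23 were at least 2-fold higher in dividing cells in every library, and all 35 were higher in every library by any amount, with a median log2 ratio of 1.65. Mcm6, a subunit of the replicative helicase, averaged 154 ± 18.1 CPM in dividing cells and 59.6 ± 18.5 CPM in cells with a cycle sum of 0. Pcna, the sliding clamp, averaged 144 ± 11.1 CPM and 46.9 ± 7.94 CPM in the same order. Of 16 nucleotide supply genes 9 passed the limit, and they were uneven. Rrm2, the regulated subunit of ribonucleotide reductase, had a log2 ratio of 6.80 and thymidylate synthase, Tyms, 3.50, while Impdh2, an enzyme of guanine nucleotide synthesis, had 0.82.

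Chromatin genes lay between these. Of 28 chromatin genes 21 were at least 2-fold higher in dividing cells in every library, with a median log2 ratio of 2.29. Hmgb2, a chromatin protein of dividing cells, averaged 1192 ± 64.7 CPM in dividing cells and 79.8 ± 16.4 CPM in the comparison set, and the DNA damage histone H2afx 596 ± 38.3 and 28.4 ± 5.54 CPM in the same order. Tubulin, histone and high mobility group genes have near-identical copies, whose reads the deposited counts may have split. Of 19 E2F, MYB and DREAM regulators 8 passed. Foxm1 and the repressor E2f8 had mean log2 ratios of 5.07 and 5.18, and Myc had 0.45. Among 23 genes of the CDK inhibitor and p53 list 4 passed, including Cdkn3 at 6.05, a phosphatase of Cdk1 and Cdk2, and Cdkn2c at 3.80, an inhibitor of Cdk4 and Cdk6. Trp53 had 0.38.

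**Figure D1:**
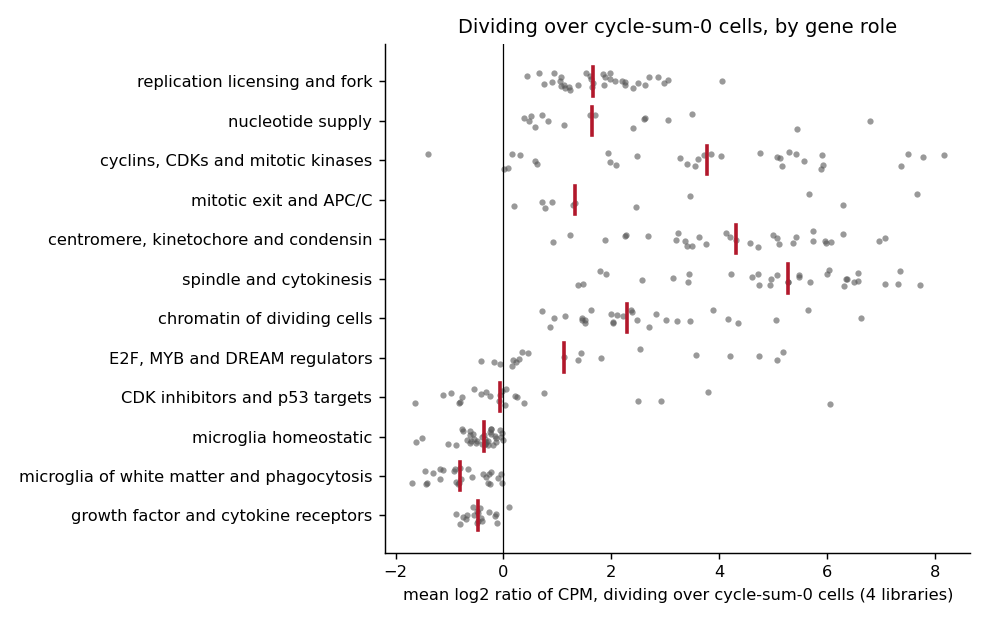
Mean log2 ratio of CPM in dividing over cycle-sum-0 microglia-like cells across 4 libraries. Each point is a gene of the named list and each bar the list's median; the spindle list is centred at 5.27, the replication list at 1.65 and the homeostatic microglia list at -0.36.

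Microglial genes stayed on in dividing cells at a lower share of the RNA. None of 36 homeostatic microglia genes was 2-fold higher, 2 were at least 2-fold lower in every library, and the median log2 ratio was -0.36, against -0.02 over all 10219 genes. The 2 were the inhibitory receptor Lag3, at 163 ± 37.6 CPM in dividing cells and 454 ± 44.7 CPM in the comparison set, and the adhesion receptor Adgrg1, at 35.9 ± 8.33 and 110 ± 20.6 CPM in the same order. Csf1r averaged 2746 ± 306 CPM in dividing cells and 3569 ± 372 CPM in the comparison set. The apolipoprotein Apoe averaged 7257 ± 1202 CPM in dividing cells and 13135 ± 1523 CPM in the comparison set, a log2 ratio of -0.88 with a range of -0.99 to -0.80 over the libraries. The 26 genes of phagocytic neonatal microglia had a median of -0.81, with the cathepsin Ctsb at -0.65. The secreted phosphoprotein Spp1 stood at -1.43, with a range of -2.47 to -0.58 over the libraries.

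The genes furthest below the comparison set were not microglial. Prostaglandin synthase Ptgds, transthyretin Ttr and the collagen gene Col1a1, known from fibroblasts and choroid plexus epithelium, had log2 ratios of -5.54, -5.40 and -4.64. Few cells held most of these UMIs. In cells with a cycle sum of 0, a single cell held 5192 of 11970 UMIs of Ptgds in HI 1, and 5150 of 8940 in naive 1 and 4024 of 4071 in naive 2 of Ttr. Markers of vessel, fibroblast and epithelium summed to 290 and 20.7 CPM in the cycle-sum-0 cells of HI 1 and HI 2 and to 2926 and 1682 CPM in those of naive 1 and naive 2. In naive 1 and naive 2 a single cell held 5193 of 11586 and 4058 of 4746 of these UMIs, the median cell held 0, and 10 and 6 cells reached 10 UMIs. In dividing cells the same sum was 14.4 and 11.2 CPM in HI 1 and HI 2 and 20.9 and 13.8 CPM in naive 1 and naive 2. Sparc, in the rule, is also made by fibroblasts, and the part of such cells in the comparison set was not tested.

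Phase genes outside the rule were used to see where in the cycle the cells stood. With at least 5 UMIs of 10 S-phase genes (Mcm2 to Mcm7, Pcna, Tyms, Rrm2 and Gins2) a cell was S-high, and with at least 5 UMIs of 8 G2/M genes (Ccnb1, Cdc20, Plk1, Aurka, Cenpa, Cenpe, Hmmr and Tpx2) it was G2/M-high. Of the 445 dividing cells 222 (49.9%) were high for both, 85 for S alone, 100 for G2/M alone and 38 for neither. With all cells thinned to 5000 UMIs and dividing cells chosen again, the S-high share was lower, at 35.6% and 48.5% in HI and 40.2% and 47.4% in naive, against 71.7% and 66.9% in HI and 64.8% and 74.3% in naive without thinning. Cells with a cycle sum of 5 to 9 were G2/M-high in 11.4% of cases and S-high in 62.5%, and those with a sum of 40 or more in 100% and 81.9%. Median UMIs per cell also differed, at 11663 and 18421.5 in the same order. Among cells with a cycle sum of 0, 0.0845% were G2/M-high and 25.4% S-high.

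The share of dividing cells among microglia-like cells was 20.5% in HI 1 and 20.7% in HI 2, against 20.3% in naive 1 and 20.5% in naive 2. The exact 95% binomial intervals, which cover counting error only, ran from 16.9 to 24.6% in HI 1 and from 17.2 to 23.6% in naive 1. HI minus naive was 0.21 percentage points (exact permutation test, 2-sided p = 0.333, the smallest that 2 against 2 libraries allow). With every cell thinned to 5000 UMIs the shares were 16.5% and 17.4% in HI and 14.9% and 16.4% in naive. Thinning left out 12 and 27 microglia-like cells of the HI libraries and 24 and 19 of the naive libraries as too shallow.

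The dividing share was higher in microglia-like cells than in macrophages in every library. By the mirror rule 6.09% and 6.74% of macrophages were dividing in HI 1 and HI 2, and 8.82% and 8.97% in naive 1 and naive 2. The microglia-like share exceeded the macrophage share by 12.8 ± 1.57 percentage points on average (SD, n = 4), and an exact sign-flip permutation test gave a 2-sided p = 0.13, the smallest that 4 pairs allow. The ratio of the shares was 3.37 and 3.07 in the HI libraries and 2.30 and 2.29 in the naive libraries. The gap was 2.70 points wider in HI, with an exact permutation p = 0.333, again the smallest possible. Thinning to 5000 UMIs gave macrophage shares of 3.98% and 4.99% in HI and 5.83% and 6.54% in naive, and kept the 2 groups apart in macrophages.

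**Figure D2:**
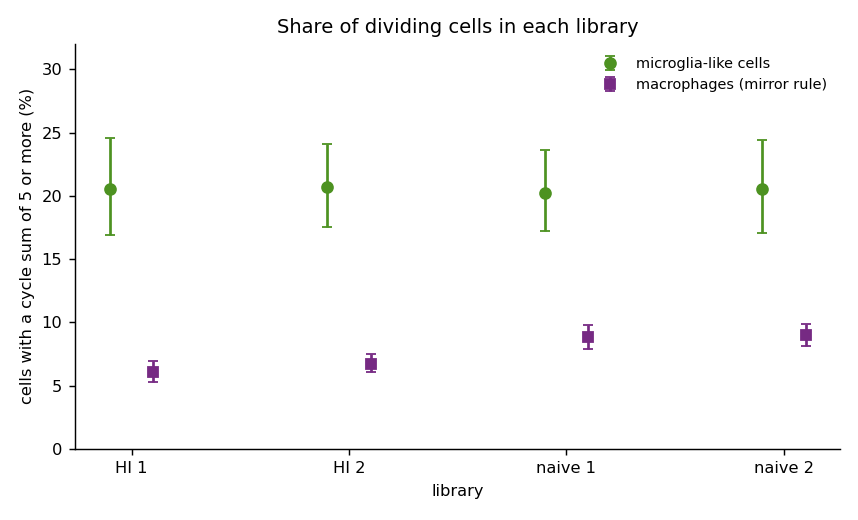
Percentage of cells with a cycle sum of 5 or more among microglia-like cells (circles) and macrophages chosen by the mirror rule (squares) in each library, with exact 95% binomial intervals. Microglia-like shares lie between 20.3 and 20.7%, macrophage shares between 6.09 and 8.97%.

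The HI and naive libraries overlapped in the phase make-up of the dividing cells. G2/M-high cells made up 73.9% and 67.7% of dividing cells in HI and 70.3% and 79.2% in naive, a difference of -3.93 points (exact permutation p = 0.667). S-high cells made up 71.7% and 66.9% in HI and 64.8% and 74.3% in naive, a difference of -0.21 points (exact permutation p = 1). Leaving out naive 2 turned the first difference to 0.515 points, and leaving out HI 2 or naive 2 turned the second to 2.19 or 4.49 points.

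Few genes passed the test of HI against naive in the dividing cells. With edgeR's quasi-likelihood test on UMIs summed per library and Benjamini-Hochberg adjustment, 13 of 9077 genes (0.143%) passed an adjusted p of 0.05, 5 higher in HI (0.0551%) and 8 lower (0.0881%). At an unadjusted p of 0.05 there were 668 genes (7.36%). DESeq2 passed 3 genes on the same sums, 2 of them, Lyve1 and Plac8, among the 13. The other 11 had DESeq2 adjusted p-values of 0.477 or more. Each of the 13 had both HI libraries beyond both naive libraries, as had 37.8% of all genes tested.

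Spint1, an inhibitor of serine proteases at the cell surface, rose. It stood at 59.6 and 67.2 CPM in HI 1 and HI 2, against 27.6 and 25.7 CPM in naive 1 and naive 2. The log2 fold change was 1.25 ± 0.19 (SE; edgeR adjusted p = 0.0117), and the UMIs came from 99 dividing cells in HI and 62 in naive. In the comparison set it was higher in HI too, at 82.8 and 134 CPM against 58.8 and 58.8 CPM in naive, without passing the test (edgeR adjusted p = 0.181). Dividing macrophages had 12.1 and 5.20 CPM in HI and 2.98 and 1.80 CPM in naive.

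Slc39a14, a plasma membrane importer of zinc, iron and manganese, rose more. It had 20.7 and 15.1 CPM in HI 1 and HI 2 and 2.91 and 1.80 CPM in naive 1 and naive 2, a log2 fold change of 2.85 ± 0.44 (SE; edgeR adjusted p = 0.0129). Slc40a1, ferroportin, the exporter of iron from cells, fell. It had 56.5 and 59.3 CPM in HI 1 and HI 2, against 118 and 114 CPM in naive 1 and naive 2, with a log2 fold change of -1.0 ± 0.14 (SE; edgeR adjusted p = 0.0117). Cells with a cycle sum of 0 had 101 and 147 CPM in HI and 174 and 213 CPM in naive, again without a call. Macrophages express ferroportin more strongly, at 255 and 382 CPM in dividing macrophages of HI and 435 and 430 CPM in those of naive. The HI and naive libraries did not overlap for either transporter in dividing cells, as for 37.8% of all genes tested there.

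Ms4a6d, a membrane protein of myeloid cells, and Pdcd11, a factor for processing ribosomal RNA, also rose. Ms4a6d had 168 and 152 CPM in HI 1 and HI 2 and 100.4 and 91.6 CPM in naive 1 and naive 2 (log2 fold change 0.73 ± 0.13 SE, edgeR adjusted p = 0.0354). Its level was also set apart in dividing macrophages, at 579 and 632 CPM in HI and 298 and 303 CPM in naive. In cells with a cycle sum of 0 it was 170 and 188 CPM in HI and 135 and 124 CPM in naive, without a call. Pdcd11 had 38.3 and 38.1 CPM in HI 1 and HI 2 and 17.0 and 11.4 CPM in naive 1 and naive 2 (log2 fold change 1.40 ± 0.24 SE, edgeR adjusted p = 0.0289). Cells with a cycle sum of 0 had 24.1 and 20.1 CPM in HI and 14.9 and 10.3 CPM in naive, also without a call. The fifth gene, the growth factor Gdf3, rested on few cells. Its 45 UMIs in HI lay in 7 cells, 21 of them in 1 cell of HI 2, and naive had 1 UMI, a ratio of 49.7 with a counting interval of 8.48 to 2006.

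Among the genes that fell, Fos, an immediate-early transcription factor, was spread over many cells. It had 11.3 and 10.1 CPM in HI 1 and HI 2 and 51.9 and 29.9 CPM in naive 1 and naive 2, a log2 fold change of -1.95 ± 0.30 (SE; edgeR adjusted p = 0.0128). It was detected in 14 and 15 dividing cells of the HI libraries and in 46 and 28 of the naive libraries. Ednrb, the endothelin receptor type B, had 8.16 and 10.1 CPM in HI 1 and HI 2 and 30.1 and 35.9 CPM in naive 1 and naive 2 (log2 fold change -1.83 ± 0.27 SE, edgeR adjusted p = 0.0117). Its level in dividing macrophages was 415 to 503 CPM over the 4 libraries, against 8.16 to 35.9 CPM here. Lyve1, a hyaluronan receptor of border-associated macrophages, had 8.16 and 6.16 CPM in HI and 36.4 and 54.5 CPM in naive (log2 fold change -2.65 ± 0.30 SE, edgeR adjusted p = 0.00173). Without cells of high doublet score Lyve1 had -1.84 (edgeR adjusted p = 0.161). Of the 13 markers of border-associated macrophages outside the rule 8 were tested, Lyve1 alone fell, none lay above 0 and their median log2 fold change was -0.98.

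The other 4 genes that fell had large parts of their UMIs in single naive cells. Plac8, a gene of monocytes, had 13 UMIs in HI and 164 in naive, and single cells held 29 of the 67 in naive 1 and 38 of the 97 in naive 2 (log2 fold change -3.51 ± 0.38 SE, edgeR adjusted p = 0.00173). Without the highest cell of each library Plac8 still had -3.44 (edgeR adjusted p = 0.0110), and DESeq2 called it too (adjusted p = 0.000197). Without cells of high doublet score Plac8 gave no value, so its call could not be checked there. Fabp7, the fatty acid binding protein of radial glia, had 157 of its 280 UMIs in naive 1 in 1 cell, and without the highest cell of each library its log2 fold change was -3.16 (edgeR adjusted p = 0.140). Id3, an inhibitor of helix-loop-helix factors, had 2 UMIs in HI and 52 in naive, of which 1 cell held 21 and another 19. Atp1b1, a sodium pump subunit, had none in HI and 35 in naive, at least 10.6-fold lower in HI against a floor of 3 counts over the summed group. The 12 monocyte markers summed to 42.7 and 19.6 CPM in dividing cells of HI and 66.4 and 89.2 CPM in those of naive, and 18 neuron and glia markers to 38.9 and 45.3 CPM in HI and 256 and 58.1 CPM in naive, and their part in these calls was not tested.

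Without the 65 dividing cells rich in markers of other types, an alternative added after the data were seen, 2 genes passed, Spint1 and Gdf3. Ednrb then had a log2 fold change of -0.32 (edgeR adjusted p = 0.913), Slc40a1 -0.86 (0.0880), Fos -1.99 (0.0786), Slc39a14 2.58 (0.0786), Ms4a6d 0.73 (0.0897) and Pdcd11 1.32 (0.173). Lyve1, Plac8, Fabp7, Id3 and Atp1b1 gave no value there. Leaving out HI 1 ended the call of 11 of the 13 genes, and leaving out HI 2, naive 1 or naive 2 that of 9 in each case. Lyve1 alone kept its call in all 4.

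**Figure D3:**
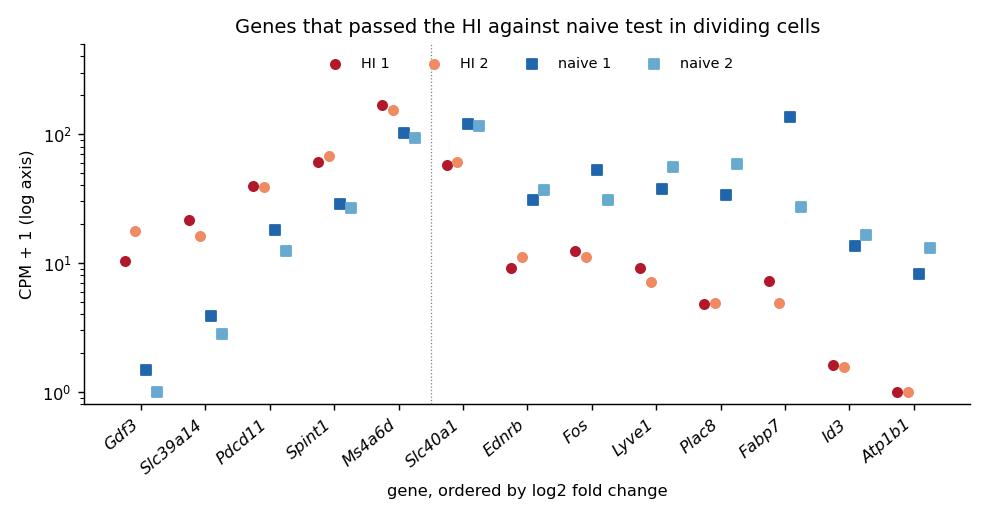
CPM + 1 on a log axis in dividing microglia-like cells for the 13 genes that passed the HI against naive test, with HI libraries as circles and naive libraries as squares. The 5 genes left of the dotted line were higher in HI, among them Spint1 at 59.6 and 67.2 CPM in HI and 27.6 and 25.7 CPM in naive; Atp1b1 had no UMI in HI.

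No gene of the cell cycle lists passed the HI test in dividing cells, where 0.143% of all genes passed, so lists of this size would hold few calls at that share. The 35 replication, 31 cyclin and kinase, 31 centromere and 32 spindle genes tested had median log2 fold changes of -0.02, -0.04, -0.03 and 0.01, against 0.00 over all 9077 genes. Single genes were close in all libraries: Ccna2 had 353 and 311 CPM in HI and 328 and 357 CPM in naive. Among the other lists, 11 mitotic exit, 27 chromatin, 19 regulator, 19 CDK inhibitor, 36 homeostatic microglia, 26 phagocytic microglia, 19 receptor, 18 cholesterol synthesis and 6 clock genes had no call either. Of these the phagocytic list had a median of -0.18 and the cholesterol list -0.25, and the homeostatic list had -0.00. P2ry12, the purinergic receptor of resting microglia and a gene of the rule, had 1242 and 1998 CPM in HI and 2296 and 2023 CPM in naive, given as a description.

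Of the injury-response lists, none of 26 hypoxia and glycolysis genes passed. Of these 18 lay above 0, against 4542 of all 9077 genes, and their median log2 fold change was 0.20. Lactate dehydrogenase, Ldha, had 982 and 853 CPM in HI 1 and HI 2 and 666 and 665 CPM in naive 1 and naive 2 (log2 fold change 0.46 ± 0.10 SE, edgeR adjusted p = 0.120). Myc, a driver of growth genes, had 128 and 101 CPM in HI and 55.8 and 72.4 CPM in naive (log2 fold change 0.85 ± 0.17 SE, edgeR adjusted p = 0.0787). None of 17 NF-kB and chemokine genes, 14 interferon genes or 23 genes of the unfolded protein response passed, and the medians of these lists were 0.03, -0.14 and 0.14. Of 15 glucocorticoid response genes 1 rose, Ms4a6d, and of 19 immediate-early genes 1 fell, Fos, against 0.143% of all genes called either way. The glucocorticoid list had a median of -0.28 with 4 of 15 genes above 0, and the immediate-early list -0.26 with 7 of 19.

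The HI effect on S-phase genes was also set side by side with that in cells with a cycle sum of 0. In that set 30 of 31 replication genes and 15 of 15 nucleotide supply genes lay above 0 in HI, with median log2 fold changes of 0.54 and 0.67, although none passed the test (edgeR). Over all 10029 genes 4952 lay above 0. In dividing cells 15 of 35 and 6 of 16 lay above 0, with medians of -0.02 and -0.06. Replication genes summed to 831 and 1091 CPM in HI 1 and HI 2 and to 694 and 655 CPM in naive 1 and naive 2 in cells with a cycle sum of 0. In dividing cells they summed to 2133 and 2589 CPM in HI and 2626 and 2339 CPM in naive. Mcm6 had a log2 fold change of -0.04 in dividing cells and 0.69 in cells with a cycle sum of 0, and the difference of -0.74 did not pass (edgeR adjusted p = 0.0947). None of 35 replication or 16 nucleotide genes passed the test of that difference (edgeR), at medians of -0.53 and -0.53, so the sets are not shown to differ in these lists. S-high cells made up 28.3% and 34.0% of the cycle-sum-0 cells in HI and 21.1% and 18.3% in naive (exact permutation p = 0.333, the smallest possible), and 17.6% and 24.2% against 13.2% and 12.4% with all cells thinned to 5000 UMIs and the set formed again.

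Of 10029 genes tested in cells with a cycle sum of 0, 7 passed (0.0698%), 3 higher in HI (0.0299%) and 4 lower (0.0399%), by the same edgeR test. At an unadjusted p of 0.05 there were 1518 genes (15.1%), and in 47.4% of genes the groups did not overlap. Myc rose there, with 103 and 92.6 CPM in HI and 38.4 and 38.3 CPM in naive (log2 fold change 1.34 ± 0.12 SE, edgeR adjusted p = 0.0223), as did the chemokine Ccl12 and the cytokine feedback inhibitor Socs3. Socs3 had 26.4 and 64.9 CPM in dividing cells of HI and 19.9 and 8.38 CPM in those of naive (edgeR adjusted p = 0.167). Fos, Ednrb and Lyve1 fell in both sets of cells. Without cells rich in markers of other types, in cells with a cycle sum of 0, Ednrb had 0.34 (edgeR adjusted p = 0.695), Lyve1 -0.37 (0.697) and Fos -2.19 (5.1e-05). Without high doublet scores Ednrb and Lyve1 also lost their calls there (edgeR adjusted p = 0.193 and 0.221). Leaving out naive 2 left 1 call in this set, and leaving out HI 2 gave 652.

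**Figure D4:**
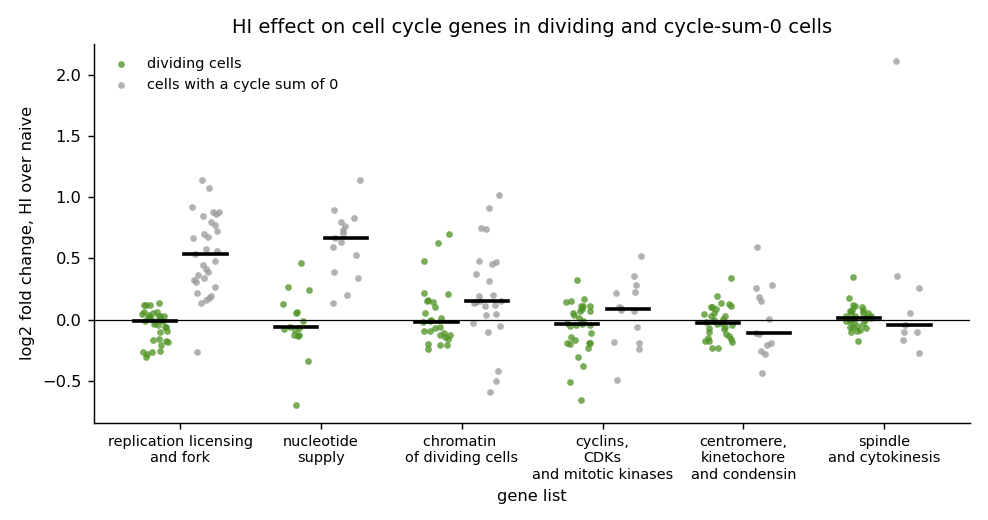
Log2 fold change of HI over naive for genes of 6 cell cycle lists, in dividing cells (green, left) and in cells with a cycle sum of 0 (grey, right), with bars at the medians. Replication genes centre on -0.02 in dividing cells and 0.54 in cells with a cycle sum of 0.

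The difference of the HI effect between the 2 sets of cells was tested directly with a term for each library. It passed for 8 of 10219 genes (0.0783%), 2 positive (0.0196%) and 6 negative (0.0587%), with 663 genes (6.49%) at an unadjusted p of 0.05. Among them was Ran, the small GTPase of nuclear transport and spindle assembly. It had 1013 and 955 CPM in HI 1 and HI 2 and 851 and 961 CPM in naive 1 and naive 2 in dividing cells, and 494 and 440 CPM in HI and 275 and 301 CPM in naive in cells with a cycle sum of 0. The HI effect was 0.56 lower on the log2 scale in dividing cells (edgeR adjusted p = 0.00439). For Ran, DESeq2 gave an adjusted p of 0.404. Spp1, at an interaction of -1.53 (edgeR adjusted p = 5.6e-06), had 2001 of its 3270 UMIs in dividing cells of naive 1 in 1 cell. It had 1221 and 477 CPM in HI and 1586 and 1378 CPM in naive in dividing cells, and 4601 and 2627 CPM in HI and 2356 and 2220 CPM in naive in cells with a cycle sum of 0. With dividing cells taken at a cycle sum of 10 or more the interaction was 0.06 (edgeR adjusted p = 1.00).

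The B-cell receptor libraries gave a readout that the rule did not use. Of 445 dividing cells, 139 (31.2%) carried an assembled heavy-chain contig that ended in the constant gene IGHM and had no V segment, as did 19.0% of 1184 cells with a cycle sum of 0. Dividing cells were also deeper, as given above, and the part of depth was not tested. Such a contig is not a rearranged receptor, and a productive contig was found in 1 of the 445. The share was 29.3% and 29.0% in dividing cells of HI 1 and HI 2 and 34.4% and 31.7% in those of naive 1 and naive 2. In cells with a cycle sum of 0 it was 15.4% and 12.8% in HI and 22.8% and 24.7% in naive. The HI and naive libraries did not overlap in either set. The B-cell receptor libraries as a whole held 612 and 957 contigs in HI and 1363 and 1176 in naive. The part of this yield in the shares was not tested. Dividing macrophages carried it in 2.31% of 1256 cells and macrophages as a whole in 0.583% of 16309, at median depths of 13870 to 16515.5 and 10005 to 11350 UMIs per library.

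The gene expression libraries showed Ighm RNA in the same sets of cells, summed per set. It stood at 207 and 269 CPM in dividing cells of HI and 256 and 305 CPM in those of naive (edgeR adjusted p = 0.749). Cells with a cycle sum of 0 were close to this, at 173 and 220 CPM in HI and 231 and 265 CPM in naive. Dividing macrophages had 57.8 and 44.6 CPM in HI and 107 and 83.6 CPM in naive. Cd79a, a signalling chain of the B-cell receptor, was at 0.627 and 0.56 CPM in dividing cells of HI and at 0 and 23.3 CPM in those of naive. Cd79b, also known from microglia, had 78.4 to 92.8 CPM. T-cell receptor contigs were found with 2 dividing cells.

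**Figure D5:**
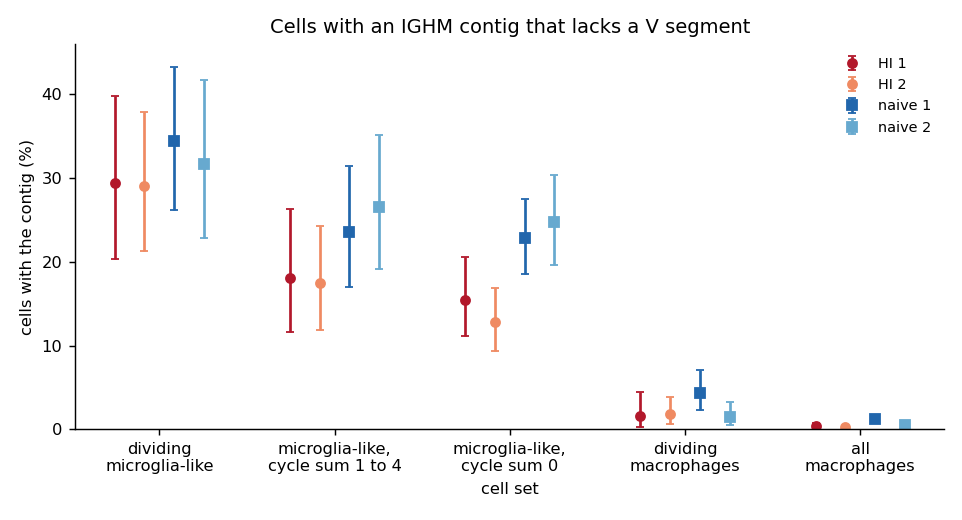
Percentage of cells with an IGHM contig that lacks a V segment, by cell set and library, with exact 95% binomial intervals. Dividing microglia-like cells lie between 29.0 and 34.4% in the 4 libraries, and dividing macrophages between 1.49 and 4.28%.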

How the data were processed

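The authors deposited raw UMI counts per gene for each barcode of 4 gene expression libraries, without normalization per the file headers, and UMI counts per assembled contig for 8 receptor libraries. Cell Ranger 2.2.0 and Seurat are named, with mm10 and GRCm38, per the submitters' processing notes. Which step used which is not given in the sources used here. Of 28694 gene IDs, 28341 matched the gene table.

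A barcode was kept from 200 genes upwards if no more than 10% of its UMIs were mitochondrial, and the rule of the opening was then applied. Doublets stayed in. Cells were ranked by Scrublet score (scanpy 1.11.5), and an alternative left out the top 0.8% per 1000 cells. UMIs summed per library were tested with edgeR 4.0.16 (filterByExpr, TMM, quasi-likelihood, Benjamini-Hochberg over all genes tested), with DESeq2 1.42.0 as the other tool. The interaction used both states with a term per library. In simulated counts for HI against naive in dividing cells, edgeR recovered 58.7% of 196 genes changed 2-fold and 96.3% of 189 changed 4-fold. False calls numbered 1 and 9 in the same order. All genes were simulated with the same dispersion, the spread between libraries. The recovery therefore does not cover genes with a wider spread or with most UMIs in single cells. Shares were tested by 2-sided exact permutation over libraries. Binomial intervals are Clopper-Pearson at 95% and, like count ratios, cover counting error only.

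The members, lists and tests were chosen with earlier results of these data known. Genes named are the 16 of the rule, those past an adjusted p of 0.05, the 12 with the largest ratio each way between states at 50 CPM or more, and the 6 most abundant measured genes of each list. Further genes were named after their values were seen, for their role.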

Additional observations from a re-analysis of the deposited data

Results flagged for a closer look

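The HI effect differed between dividing cells and cells with a cycle sum of 0 for 8 genes, by the interaction term of edgeR's quasi-likelihood test. Values are the effect in dividing cells minus that in cells with a cycle sum of 0, on the log2 scale. Ran had -0.56 (adjusted p = 0.00439, edgeR), and the call held without each library in turn, between -0.61 and -0.52. Spp1 had -1.53 and Fabp5, a fatty acid binding protein, -1.49 (adjusted p = 0.000109, edgeR). Fabp5 stood at 193 and 84.5 CPM in dividing cells of HI and 248 and 197 CPM in those of naive, and at 477 and 291 CPM in HI and 225 and 222 CPM in naive in cells with a cycle sum of 0.

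For Spp1, 1 dividing cell of naive 1 held 2001 of 3270 UMIs, and at a cycle sum of 10 or more the difference was 0.06 (edgeR adjusted p = 1.00). Without the highest cell of each library Spp1 had -1.15 and Fabp5 -1.24, both still called (edgeR adjusted p = 2.0e-05 for each). The other 5 had few UMIs or few cells with UMIs. Plac8 had -4.18 and Id3 had -4.15, with the single cells described above. Nr4a1, an immediate-early nuclear receptor, had -6.34, with 1 UMI in dividing cells of HI and 24 in those of naive. Slpi, a protease inhibitor of neutrophils and epithelium, had 5.71, with 26 UMIs in dividing cells of HI, 16 of them in 1 cell, and 2 in those of naive. The antigen presentation gene H2-Aa had 1.82, and 1 dividing cell of HI 1 held 380 UMIs while 1 of naive 1 held 125, with none in the other dividing cells.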

How the results depend on the processing

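Dividing cells had 13 calls, against 3 with DESeq2, 164 with no low-count filter, 39 at a cycle sum of 3 or more, 8 at 10 or more, 7 with a macrophage sum of at most 1, 2 without cells rich in other markers, and 14 to 25 without 1 library each. Cells with a cycle sum of 0 had 7 calls, against 85 with DESeq2, 836 with no filter, 237 without cells rich in other markers, 31 without the highest cell of each gene, and 1 to 652 without 1 library each. The interaction had 8 calls, against 2 with DESeq2, 88 with no filter, 18 without high doublet scores, 32 at a cycle sum of 10 or more, 14 without the highest cell, and 7 to 72 without 1 library each. The 497 genes 2-fold apart between states became 957 at 1.5-fold and 321 at 3-fold, and 541 to 656 without 1 library each. Without 1 library each, the difference in G2/M-high share ran from -8.38 to 0.515 points and in S-high share from -4.92 to 4.49. Ednrb turned to 0.34 in cells with a cycle sum of 0 without cells rich in other markers, and the Spp1 interaction to 0.061 at a cycle sum of 10 or more. The cause of these changes was not tested. RLE size factors changed none of 28 gene results. Deviations of libraries with the same number correlated at 0.068 in dividing cells and 0.289 in the other set, both positive. These values do not speak against pairs by number. The numbers were not taken as pairs because the labels do not tie them to the runs. A replicate block gave 133 and 199 calls in the 2 sets. With 92 to 128 dividing cells per library, genes of few UMIs rest on single cells.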
